A study of Mus musculus with 8 samples.

Results

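MHC class I antigen presentation was followed through 10 genes in EO771 cells, a mouse mammary tumour line, that were either treated with the lipid 12-HETE or made to overexpress ADAR1 p150. The genes were B2m, H2-K1, H2-D1, Tap1, Tap2, Tapbp, Psmb8, Psmb9, Psmb10 and Nlrc5. They were chosen by symbol, and each matched 1 of the 49997 genes in the count table. The 8 RNA-seq libraries formed 4 groups of 2. Vehicle cells received 2% DMSO in saline, 12-HETE cells received 12-HETE at 100 nM, vector cells carried an empty vector, and ADAR1 p150 OE cells carried a vector for the interferon-inducible long form of the RNA-editing enzyme ADAR1. The exposure to 12-HETE lasted 48 h. The labels gave the cell line and the treatment of each library, with vehicle and 12-HETE replicates numbered 4 and 5 and the vector and ADAR1 p150 OE replicates numbered 1 and 2. The labels did not state whether the libraries came from separate cultures, although the study describes its RNA-editing comparison of the same treatments as independent experiments. The p-values measured only the spread between these libraries, which may be technical. All 4 groups were the same cultured line, and whether the transduced cells were a pool or a clone is not stated.

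Class I molecules show peptides from inside the cell to CD8+ T cells. A polymorphic heavy chain, here H2-K1 or H2-D1, pairs with the invariant light chain B2m, and the pair is held by tapasin (Tapbp) beside the peptide transporter made of Tap1 and Tap2 until a peptide binds. The peptides are cut by proteasomes, in which the interferon-inducible subunits Psmb8, Psmb9 and Psmb10 replace the constitutive catalytic subunits, and Nlrc5 is the transactivator that drives transcription of many of these genes. Tumour cells that present little class I are poorly seen by CD8+ T cells.

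The libraries were shallow for these genes. Totals ran from 1101767 to 1537037 counts, of which 1 row, AY036118, took 44.4% to 50.3%, and a floor of 3 counts stood at 1.95 to 2.72 CPM (counts scaled to a library of 1000000) by library, covering counting error only. Libraries of the same group were not copies of each other, since the chi-square of their counts averaged 1.82 to 3.31 per gene where counting error alone gives about 1. Adar, the targeted gene, had 181 and 140 counts with ADAR1 p150 OE against 2 to 8 in the other 6 libraries, with a log2 difference from vector of 4.68 (SE 0.32, adjusted p = 6.4e-14, edgeR). The epithelial keratins Krt8, Krt18 and Krt7 were detected, whereas Epcam had 1 to 4 counts and Cdh1 had 0 in every library. Of the 10 leukocyte markers, 4 were at 0 in every library, Cd3e, Adgre1 and Tyrobp among them, and Ptprc had 0 or 1 count. Others were detected, with 10 to 26 counts of Cd68, 5 to 13 of Csf1r and 2 to 12 of Cd79a. The leukocyte markers summed to 30.6 to 30.8 CPM in vehicle and 14.4 to 16.9 CPM with 12-HETE, and to 32.7 to 35.7 CPM in vector and 27.3 to 35.5 CPM with ADAR1 p150 OE. The 3 endothelial markers summed to 6.66 to 8.73 CPM in vehicle and 0.653 to 1.95 CPM with 12-HETE, and to 5.23 to 8.17 CPM in vector and 1.42 to 8.13 CPM with ADAR1 p150 OE. Sums over the 5 markers of professional antigen-presenting cells, of which H2-Ab1 and Itgax were at 0 in every library, were 12.5 to 14.8 CPM in vehicle, 9.80 to 13.0 CPM with 12-HETE, 16.3 to 19.2 CPM in vector and 13.3 to 19.9 CPM with ADAR1 p150 OE. The 5 fibroblast markers, with Col1a2 at 0 in every library, summed to 8.71 to 41.9 CPM over the 8 libraries. Among them Dcn was detected, at 8 to 57 counts, as was Cd74 among the antigen-presenting cell markers, at 7 to 20 counts. The part of these marker levels in the class I results was not tested. In bulk RNA, fewer cells of a kind and less RNA per cell cannot be told apart.

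The regulatory sequence just upstream of 4 genes is shown because their transcripts were the ones with enough counts to test. Each sequence is the 250 bases before the transcription start in RefSeq annotation of GRCm38.p6, and RefSeq promoter windows were matched for 8 of the 10 genes, all but Tap2 and Nlrc5. Capitals mark matches on either strand to 4 short motifs. These were the core of the interferon-stimulated response element, ISRE (GAAANNGAAA), the STAT-binding GAS element (TTCNNNGAA), the CCAAT box (CCAAT, bound by NF-Y), and the core of a cyclic AMP response element (TGACG, part of the X2 box of class I promoters). The windows lay at chr2:122147437-122147686 for B2m, chr17:35262844-35263093 for H2-D1, chr17:34187306-34187555 for Tap1 and chr17:33919228-33919477 for Tapbp, all on the plus strand.
B2m: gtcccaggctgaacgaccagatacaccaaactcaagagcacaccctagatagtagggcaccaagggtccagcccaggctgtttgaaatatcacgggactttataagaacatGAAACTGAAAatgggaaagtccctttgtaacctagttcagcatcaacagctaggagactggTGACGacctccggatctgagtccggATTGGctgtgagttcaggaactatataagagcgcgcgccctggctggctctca
H2-D1: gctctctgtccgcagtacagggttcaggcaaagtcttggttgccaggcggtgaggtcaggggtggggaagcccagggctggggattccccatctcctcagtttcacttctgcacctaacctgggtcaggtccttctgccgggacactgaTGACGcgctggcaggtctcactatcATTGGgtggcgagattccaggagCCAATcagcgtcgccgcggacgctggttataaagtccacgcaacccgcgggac
Tap1: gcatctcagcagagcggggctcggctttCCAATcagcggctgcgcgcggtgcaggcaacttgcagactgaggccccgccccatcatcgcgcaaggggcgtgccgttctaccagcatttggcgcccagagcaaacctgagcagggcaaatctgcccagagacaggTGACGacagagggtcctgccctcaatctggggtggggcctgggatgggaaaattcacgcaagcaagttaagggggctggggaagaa
Tapbp: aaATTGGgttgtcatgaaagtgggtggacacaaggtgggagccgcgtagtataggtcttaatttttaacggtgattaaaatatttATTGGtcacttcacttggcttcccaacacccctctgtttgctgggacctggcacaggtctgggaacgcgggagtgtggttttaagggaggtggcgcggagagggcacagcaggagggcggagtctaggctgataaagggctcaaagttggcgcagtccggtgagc

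The B2m window held an ISRE core 139 bases before the start, a TGACG at 78 bases and a CCAAT box at 53 bases. H2-D1 held TGACG at 101 bases and CCAAT boxes at 76 and 53 bases, and Tap1 held TGACG at 86 bases and a CCAAT box at 222 bases. Tapbp held 2 CCAAT boxes, at 248 and 165 bases, and none of the other 3 motifs. Over the 8 matched genes, the CCAAT box was found in 6, TGACG in 5, the ISRE core in 1 (B2m) and the GAS element in 1 (Psmb8). Of all 32851 windows of 250 bases, 33.8% held the CCAAT box, 17.8% TGACG, 2.98% the ISRE core and 7.02% the GAS element. The Tap1 window is largely the same DNA as the Psmb9 window read on the other strand, since these 2 genes start head to head. A match is a match of letters, and no binding was measured here. Sites that depart from these letters were not marked, so a window without a match may still hold such an element.

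Transcripts of the 4 class I genes with enough counts to test had log2 differences below 0 with both 12-HETE and ADAR1 p150 OE. With DESeq2, 1 of them was called lower with ADAR1 p150 OE, beside 423 of all 6901 genes, and Tap1 had no adjusted p there. H2-Q1, a heavy chain gene outside the 10, rose with both treatments. B2m, H2-D1 and Tap1 fell in both comparisons, and Tapbp, the loading chaperone, passed the test against vector and not against vehicle. Tap1 had the largest log2 change of the 4 genes tested, going from 16 to 20 counts in each control library to between 1 and 6 in each treated library. The remaining 6 genes had too few counts for the test, which required a mean of at least 10 counts over the 8 libraries. Tap1 passed this minimum through its control libraries, so the size of its fall is a description. The 10 genes together held 244 and 289 counts in vehicle, 151 and 163 with 12-HETE, 193 and 240 in vector, and 159 and 112 with ADAR1 p150 OE. Scaled to library totals these sums were 213 and 241 CPM in vehicle against 98.2 and 107 CPM with 12-HETE, and 168 and 218 CPM in vector against 113 and 82.8 CPM with ADAR1 p150 OE, without overlap in either pair. No test was made on the sum, and H2-D1 and B2m together supplied 67.4% to 79.5% of it.

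**Figure D1:**
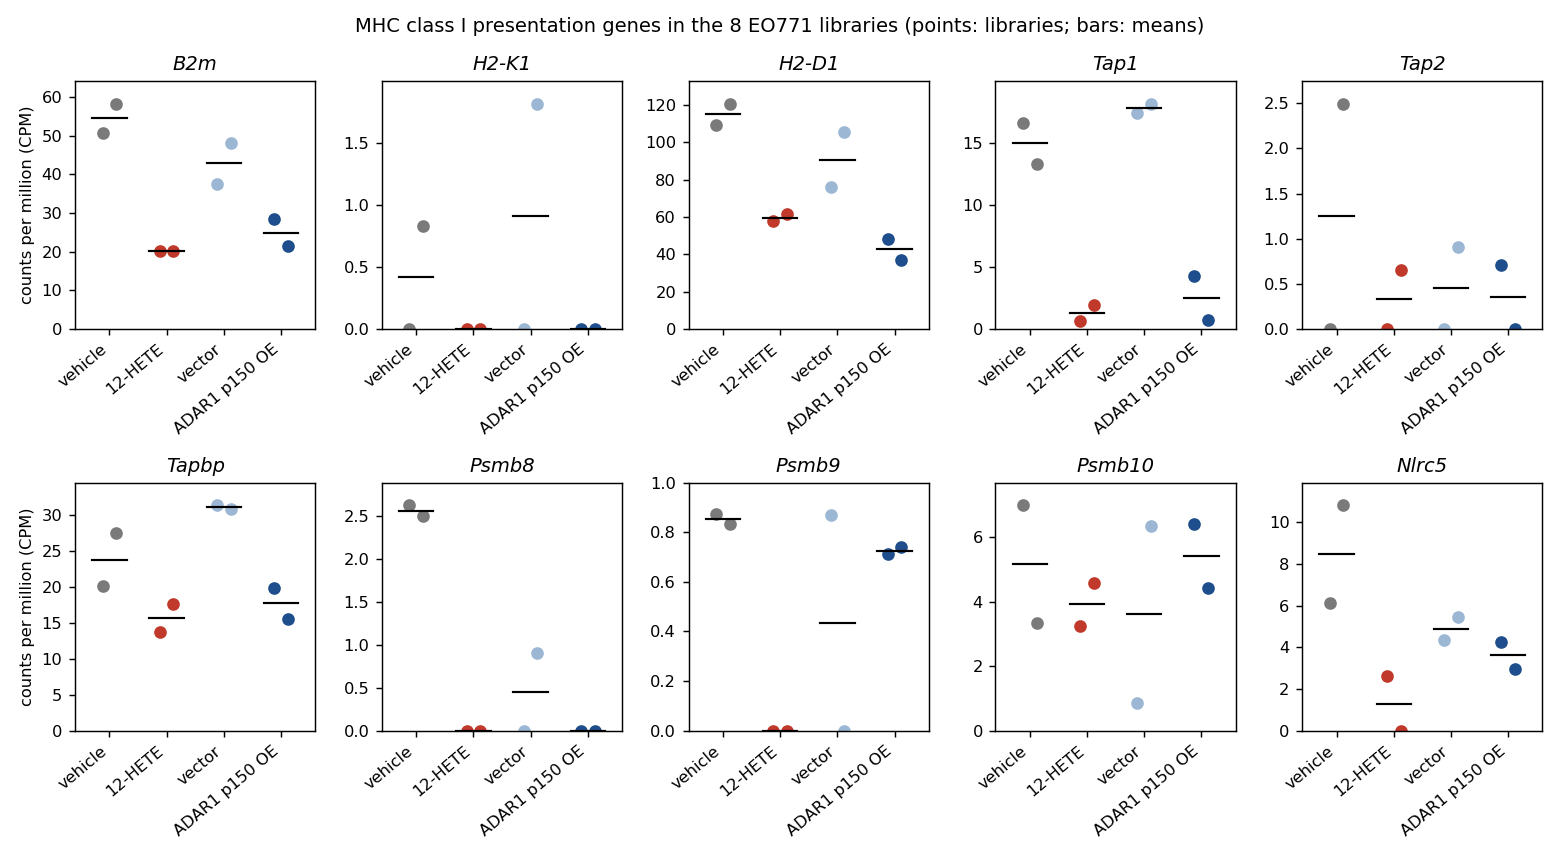
Each panel plots 1 of the 10 class I genes, with the CPM in each of the 8 libraries as points by group and bars at the group means. B2m, H2-D1 and Tap1 sit lower with 12-HETE than with vehicle and lower with ADAR1 p150 OE than with vector in every library, whereas H2-K1, Tap2, Psmb8 and Psmb9 stay at 0 to 3 counts in every library.

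The light chain gene B2m (chr2:122147687-122153082, plus strand) had 58 and 70 counts in vehicle, 31 and 31 with 12-HETE, 43 and 53 in vector, and 40 and 29 with ADAR1 p150 OE. Every treated library was below both libraries of its own control. Normalised with TMM factors, B2m fell from 53.9 ± 5.95 to 22.9 ± 1.15 CPM with 12-HETE (SD, n = 2), a log2 change of -1.23 (SE 0.24, adjusted p = 0.000104, edgeR quasi-likelihood test with Benjamini-Hochberg adjustment over 6901 genes). With ADAR1 p150 OE it fell from 42.8 ± 4.99 to 25.0 ± 4.40 CPM, a log2 change of -0.77 (SE 0.24, adjusted p = 0.0172, edgeR). This second call was lost with DESeq2 (adjusted p = 0.113), without vector replicate 2 (-0.64, edgeR adjusted p = 0.164) and without ADAR1 p150 OE replicate 2 (-0.60, edgeR adjusted p = 0.132). B2m was the most abundant of the 10 per length of exon, at a mean of 63.3 CPM per kb in vehicle, 23.5 with 12-HETE, 49.7 in vector and 29.0 with ADAR1 p150 OE. Patl2 lies across B2m on the opposite strand but shares no exon base with it, and had 1 to 8 counts.

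The heavy chain gene H2-D1 (chr17:35263094-35267497, plus strand) had 125 and 145 counts in vehicle, 89 and 94 with 12-HETE, 87 and 116 in vector, and 68 and 50 with ADAR1 p150 OE. The treated and control libraries again did not overlap once scaled to depth. It fell from 114 ± 9.39 to 67.7 ± 6.01 normalised CPM with 12-HETE, a log2 change of -0.75 (SE 0.17, adjusted p = 0.00073, edgeR), and from 90.4 ± 15.5 to 42.8 ± 7.10 with ADAR1 p150 OE, a log2 change of -1.07 (SE 0.19, adjusted p = 3.7e-05, edgeR). Per length it was second, with means of 44.6 CPM per kb in vehicle, 23.1 with 12-HETE, 35.1 in vector and 16.5 with ADAR1 p150 OE. H2-K1 (chr17:33996012-34000619, minus strand), the other classical heavy chain listed, had 1 count in vehicle replicate 5, 2 in vector replicate 2 and 0 in the other 6 libraries, which were all under the 3-count floor. Class I heavy chains are near-copies of each other, and reads that fit several genes may be lost or misplaced. Of the 2591 stretches of 100 bases in H2-D1 exons, 93 (3.59%) occurred exactly in another gene, 85 of them in H2-Q1, and 38 of 3969 (0.957%) did so for H2-K1.

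Tap1 (chr17:34187556-34197225, plus strand), the first subunit of the peptide transporter, had 19 and 16 counts in vehicle, 1 and 3 with 12-HETE, 20 and 20 in vector, and 6 and 1 with ADAR1 p150 OE. All 4 treated libraries had 6 counts or fewer and all 4 controls 16 or more. The log2 change was -3.23 with 12-HETE (SE 0.61, adjusted p = 8.8e-05, edgeR), from 14.8 ± 2.12 to 1.51 ± 1.12 normalised CPM, and -2.76 with ADAR1 p150 OE (SE 0.53, adjusted p = 0.000125, edgeR), from 17.9 ± 0.553 to 2.49 ± 2.45. As ratios of summed counts scaled to depth, 4 counts against 35 gave 0.101 with an exact 95% counting interval of 0.0260 to 0.282, and 7 against 40 gave 0.142 with an interval of 0.0538 to 0.321. Tap1 was just inside the count minimum, with a mean of 10.8 counts, and DESeq2 gave it no adjusted p in the ADAR1 p150 OE comparison. With treated counts this low it could pass that minimum only through higher controls, so its falls and their p-values are a description. The partner subunit Tap2 (chr17:34204479-34216321, plus strand) had 0 to 3 counts in every library, and in a fit with no count minimum its adjusted p was 0.844 with 12-HETE and 1 with ADAR1 p150 OE (edgeR).

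Tapbp (chr17:33919478-33929290, plus strand), which encodes tapasin, had 23 and 33 counts in vehicle, 21 and 27 with 12-HETE, 36 and 34 in vector, and 28 and 21 with ADAR1 p150 OE. With 12-HETE the counts and the TMM-normalised values overlapped those of vehicle, although CPM on library totals did not, and the log2 difference of -0.41 did not pass the test (SE 0.31, adjusted p = 0.35, edgeR). With ADAR1 p150 OE both libraries were below both vector libraries, and it fell from 31.3 ± 2.23 to 17.8 ± 2.70 normalised CPM, a log2 change of -0.81 (SE 0.30, adjusted p = 0.0426, edgeR). That call was close to the threshold and was lost with DESeq2 (adjusted p = 0.201), with library totals alone as the scale (0.0504), with the replicate number as a block (0.0617) and in each of the 4 fits that left out a library (0.0642 to 0.196, edgeR). Its mean level per length was 6.55 CPM per kb in vehicle, 4.31 with 12-HETE, 8.57 in vector and 4.88 with ADAR1 p150 OE.

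The immunoproteasome subunits were near the limit of detection. Psmb8 (chr17:34198195-34201454, plus strand) had 3 counts in each vehicle library, 1 in vector replicate 2 and 0 in the other 5. Psmb9 (chr17:34182030-34187330, minus strand) had 1 count in each vehicle and each ADAR1 p150 OE library, 1 and 0 in vector and 0 in both 12-HETE libraries. No difference was detectable at this depth, since with no count minimum the adjusted p was 0.187 for Psmb8 (0.0244 unadjusted) and 0.701 for Psmb9 with 12-HETE, and 0.84 and 1 with ADAR1 p150 OE (edgeR). Psmb10 (chr8:105935728-105938392, minus strand) was the best covered of the set, with 8 and 4 counts in vehicle, 5 and 7 with 12-HETE, 1 and 7 in vector, and 9 and 6 with ADAR1 p150 OE. Its groups overlapped, and a fit with no count minimum gave log2 differences of -0.24 (adjusted p = 0.958, edgeR) and 0.50 (adjusted p = 0.84, edgeR).

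The transactivator gene Nlrc5 (chr8:94434335-94527272, plus strand) had 7 and 13 counts in vehicle, 4 and 0 with 12-HETE, 5 and 6 in vector, and 6 and 4 with ADAR1 p150 OE. The 12-HETE libraries were below vehicle, and the other comparison overlapped in counts but not in CPM on library totals (4.35 and 5.45 in vector, 4.26 and 2.96 with ADAR1 p150 OE). With a mean of 5.6 counts it was outside the minimum, as was Psmb10 with 5.9. With no minimum applied, Nlrc5 passed the test for 12-HETE at a log2 change of -2.48 (SE 0.68, adjusted p = 0.00524, edgeR) and did not for ADAR1 p150 OE at -0.52 (SE 0.64, adjusted p = 0.84, edgeR). The test of the difference between these 2 effects was not passed (adjusted p = 0.409, edgeR).

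Of the 4 class I genes tested, 3 were called lower with 12-HETE at an adjusted p under 0.05, where 14.2% of all tested genes were lower and 15.1% higher. None was higher. With ADAR1 p150 OE all 4 tested genes were called lower, beside 11.1% of all tested genes lower and 14.5% higher. Past a 2-fold change as well, B2m and Tap1 remained with 12-HETE against 8.25% of all genes, and H2-D1 and Tap1 with ADAR1 p150 OE against 4.69%. Over the 4 genes the median log2 difference was -0.99 for 12-HETE and -0.94 for ADAR1 p150 OE, beside 0.0044 and 0.066 over every gene tested. The 6 genes that missed the minimum are in neither count nor median. Tap1 passed the minimum through its control libraries and so had to be lower with treatment to pass with few treated counts, which makes these counts and medians a description. Where 10 counts were required in every library, Tap1 left the test. Of the other 3, 2 were called lower with 12-HETE and 3 of 3 with ADAR1 p150 OE. In that fit 743 of all 4592 genes were called lower with 12-HETE and 560 with ADAR1 p150 OE. Scaling to library totals alone moved the median of all genes with 12-HETE to -0.20, and B2m, H2-D1 and Tap1 kept their direction and call there.

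**Figure D2:**
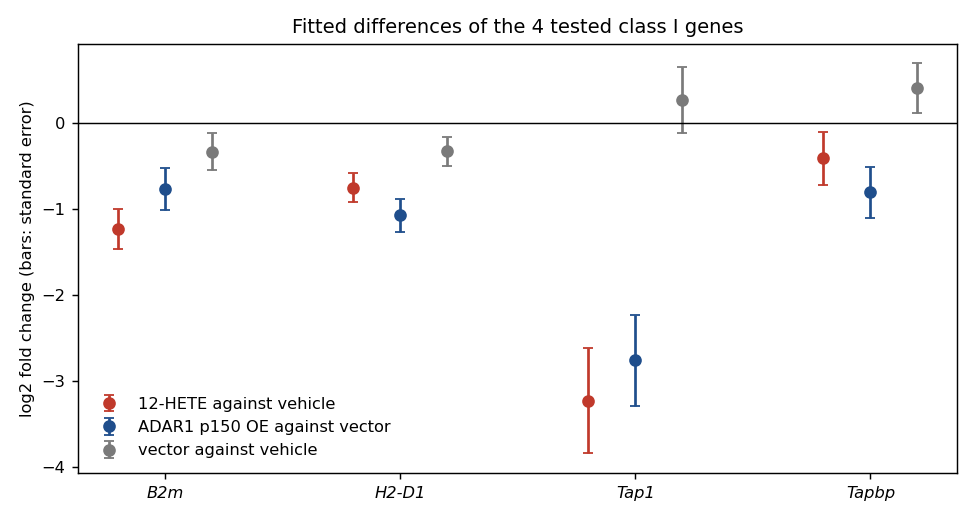
The plot gives the log2 difference of each of the 4 tested class I genes, with bars of 1 SE, for 12-HETE against vehicle, ADAR1 p150 OE against vector and vector against vehicle. All points of the first 2 comparisons lie below 0, with Tap1 at -3.23 and -2.76, whereas vector against vehicle lies between -0.33 and 0.41.

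Vector cells were compared with vehicle cells because each serves as a control for its own treatment. These groups differed in the vector, the DMSO and the replicate numbering, whose parts cannot be told apart. The 4 tested genes differed by -0.33 for B2m (SE 0.22, adjusted p = 0.563, edgeR), -0.33 for H2-D1 (SE 0.17, adjusted p = 0.445, edgeR), 0.27 for Tap1 (SE 0.38, adjusted p = 0.815, edgeR) and 0.41 for Tapbp (SE 0.29, adjusted p = 0.603, edgeR). None of the 4 was called, beside 0.116% of all genes tested in edgeR, and in this fit and in DESeq2 none reached an unadjusted p under 0.05. In other edgeR fits H2-D1 did, with an unadjusted p of 0.0347 when 10 counts were required in every library, 0.0437 with only the libraries of the contrast and 0.0194 without vector replicate 2 (log2 difference -0.52), but none of these passed adjustment (adjusted p = 0.362, 0.395 and 0.321). Each of these differences uses the control libraries of the other comparisons. The size of the 12-HETE effect was then set against that of ADAR1 p150 OE in 1 fit. The difference of the 2 log2 effects was -0.46 for B2m (SE 0.34, adjusted p = 0.414, edgeR), 0.33 for H2-D1 (SE 0.25, adjusted p = 0.439, edgeR), -0.47 for Tap1 (SE 0.92, adjusted p = 0.798, edgeR) and 0.40 for Tapbp (SE 0.43, adjusted p = 0.606, edgeR). The sign for Tap1 turned without 12-HETE replicate 4 (0.13) or ADAR1 p150 OE replicate 1 (1.16). None of the 4 was called, beside 15.0% of all genes, and none reached an unadjusted p under 0.05 in edgeR or DESeq2. With errors of this size, the test does not show that the 2 treatments lowered these genes alike.

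A transcript with many more reads lies opposite Tapbp. Gm19412 (chr17:33919279-33920485, antisense in GENCODE M21) shares 904 exon bases with Tapbp and covers most of the Tapbp promoter window printed above. It had 633 and 601 counts in vehicle, 349 and 384 with 12-HETE, 626 and 696 in vector, and 475 and 453 with ADAR1 p150 OE. Every treated library was below its controls, and Gm19412 had 14.2 to 27.5 times the counts of Tapbp in the same library. It fell with 12-HETE by a log2 change of -0.94 (SE 0.10, adjusted p = 7.8e-09, edgeR) and with ADAR1 p150 OE by -0.80 (SE 0.10, adjusted p = 1.7e-07, edgeR), and did not pass the test between vector and vehicle (0.18, adjusted p = 0.495, edgeR). The methods name a directional library kit, the labels another kit, and neither gives the strand setting of the counting. Reads of Tapbp and Gm19412 on their shared bases therefore cannot be told apart. Zbtb22 also shares 149 exon bases with Tapbp, on the same strand, and had 5 to 15 counts.

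Nlrc5 has such a neighbour too. The lincRNA 9330175E14Rik shares 78 exon bases with it on the opposite strand and had 54 and 67 counts in vehicle, 31 and 26 with 12-HETE, 49 and 59 in vector, and 45 and 43 with ADAR1 p150 OE. The treated libraries were below their controls in both comparisons, and it fell with 12-HETE (log2 change -1.27, SE 0.24, adjusted p = 7.8e-05, edgeR). With ADAR1 p150 OE the difference of -0.59 missed the threshold (SE 0.22, adjusted p = 0.0516, edgeR), and it passed with RLE size factors (adjusted p = 0.0317), without AY036118 (0.0347) and with only the libraries of the contrast (0.0418, edgeR). Tap1 and Psmb9 share 212 exon bases at their head-to-head starts. H2-D1 had no overlapping neighbour in the annotation.

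**Figure D3:**
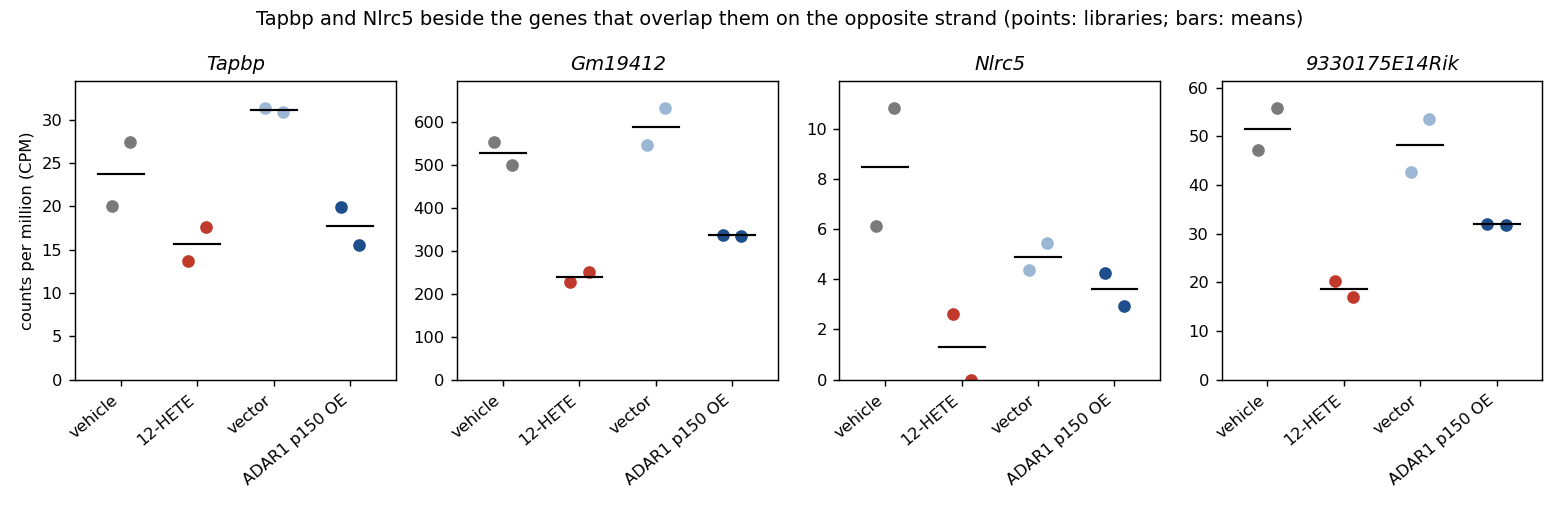
Panels plot the CPM of Tapbp, Gm19412, Nlrc5 and 9330175E14Rik in each of the 8 libraries as points by group, with bars at the group means and each axis starting at 0. Both 12-HETE libraries sit lowest for Gm19412 (349 and 384 counts) and for 9330175E14Rik (31 and 26 counts).

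A list of 60 other genes of the wider class I pathway was read from the same fit. It held heavy chains, loading and trimming factors, proteasome partners, and the transactivators and interferon-gamma signalling genes that control class I. Of these, 58 had a row and 28 passed the count minimum. With 12-HETE 4 were called higher and 4 lower, beside 15.1% of all tested genes higher and 14.2% lower. With ADAR1 p150 OE 3 were higher and 5 lower, beside 14.5% higher and 11.1% lower. Calls went in both directions, as they did over all genes. The median log2 difference over the 28 was -0.025 with 12-HETE and 0.20 with ADAR1 p150 OE.

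Among the other heavy chains, 5 of 16 were tested. With 12-HETE 1 rose and 2 fell, beside 15.1% of all tested genes higher and 14.2% lower. With ADAR1 p150 OE 1 rose and 3 fell, beside 14.5% higher and 11.1% lower. H2-T23, which encodes the nonclassical chain Qa-1 that is read by inhibitory NKG2A receptors, had 33 and 43 counts in vehicle, 27 and 11 with 12-HETE, 32 and 44 in vector, and 24 and 18 with ADAR1 p150 OE. It fell in both comparisons, by log2 changes of -1.19 (SE 0.32, adjusted p = 0.00503, edgeR) and -1.14 (SE 0.32, adjusted p = 0.00692, edgeR). DESeq2 lost both calls (adjusted p = 0.0565 and 0.0607), and so did edgeR without 12-HETE replicate 5 (adjusted p = 0.148) for the first and without vector replicate 2 (adjusted p = 0.104) or ADAR1 p150 OE replicate 2 (adjusted p = 0.0637) for the second. H2-T22, a ligand of some gamma-delta T cell receptors, had 79 and 102 counts in vehicle, 72 and 64 with 12-HETE, 112 and 115 in vector, and 50 and 64 with ADAR1 p150 OE. It fell with ADAR1 p150 OE (-1.28, SE 0.19, adjusted p = 2.2e-06, edgeR) and with 12-HETE (-0.60, SE 0.19, adjusted p = 0.0145, edgeR), where the call was lost with DESeq2 (adjusted p = 0.115), without vehicle replicate 5 (edgeR adjusted p = 0.153), without 12-HETE replicate 4 (0.0596) and without 12-HETE replicate 5 (0.0874). H2-T22 shares 1003 exon bases with the opposite-strand transcript A930015D03Rik, which had 3 to 19 counts.

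H2-T24 had 86 and 100 counts in vector and 71 and 80 with ADAR1 p150 OE, and fell there (-0.59, SE 0.18, adjusted p = 0.0137, edgeR). The call was lost with DESeq2 (adjusted p = 0.0965), without vector replicate 2 (edgeR adjusted p = 0.134) and without ADAR1 p150 OE replicate 1 (0.122). With 12-HETE the log2 difference of H2-T24 was -0.33 (SE 0.19, adjusted p = 0.212, edgeR), and with library totals alone as the scale it passed (adjusted p = 0.0429, edgeR). H2-Q1 went the other way, from 1 and 3 counts in vehicle to 20 and 15 with 12-HETE and from 6 and 7 in vector to 49 and 48 with ADAR1 p150 OE. Its log2 changes were 2.87 (SE 0.58, adjusted p = 0.000197, edgeR) and 2.59 (SE 0.38, adjusted p = 1.8e-06, edgeR). H2-Q1 passed the count minimum through its ADAR1 p150 OE libraries, where it was highest, so these rises are a description. H2-Q1 is the gene that shares 85 of its 100-base stretches with H2-D1, which fell, so the split of reads between them is uncertain.

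The peptide loading and trimming factors, with 10 of 16 tested, gave 1 rise in each comparison and no fall. For 12-HETE the calls took in 15.1% of all tested genes upwards and 14.2% downwards. For ADAR1 p150 OE these shares were 14.5% upwards and 11.1% downwards. Whether the loading and trimming list departed from these shares was not tested. Calr, the chaperone calreticulin, rose with 12-HETE from 64 and 86 counts to 139 and 145 (log2 change 0.73, SE 0.19, adjusted p = 0.00283, edgeR), a call lost with DESeq2 (adjusted p = 0.0665) and without vehicle replicate 4 (edgeR adjusted p = 0.0760). Between vector (48 and 52 counts) and ADAR1 p150 OE (90 and 50) its difference was 0.19 (SE 0.22, adjusted p = 0.599, edgeR). Erap1, the aminopeptidase that trims peptides in the endoplasmic reticulum, rose with ADAR1 p150 OE from 39 and 50 counts to 132 and 121 (1.21, SE 0.19, adjusted p = 9.1e-06, edgeR). With 12-HETE it had 68 and 62 counts against 54 and 43 in vehicle (0.23, SE 0.21, adjusted p = 0.446, edgeR). Erap1 shares 834 exon bases with Cast on the opposite strand, which had 18 to 43 counts. Of the proteasome partners, 3 of 8 were tested, and 1 rose with 12-HETE, beside 15.1% of all tested genes. This was Psme3, a subunit of the nuclear proteasome activator, from 20 and 22 counts in vehicle to 58 and 57 with 12-HETE (1.26, SE 0.29, adjusted p = 0.00113, edgeR), with 0.14 in the other comparison (SE 0.35, adjusted p = 0.819, edgeR).

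Of the transactivators and interferon-gamma signalling genes, 10 of 20 were tested. With ADAR1 p150 OE 1 rose and 2 fell, beside 14.5% of all tested genes higher and 11.1% lower. Stat2, a transducer of type I interferon signals, had 21 and 28 counts in vehicle, 6 and 3 with 12-HETE, 9 and 18 in vector, and 4 and 2 with ADAR1 p150 OE. Stat2 passed the count minimum, at a mean of 11.4 counts, through its control libraries, so its falls are a description. It fell by log2 changes of -2.60 (SE 0.48, adjusted p = 5.7e-05, edgeR) and -2.41 (SE 0.58, adjusted p = 0.00195, edgeR), and the second call was lost without vector replicate 2 (edgeR adjusted p = 0.0823). Creb1, a factor that binds cyclic AMP response elements, rose with ADAR1 p150 OE from 5 and 12 counts to 32 and 29 (1.54, SE 0.40, adjusted p = 0.00348, edgeR), a call lost with DESeq2 (adjusted p = 0.0813) and without vector replicate 1 (edgeR adjusted p = 0.108).

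Rfxank, a subunit of the RFX complex that binds class I and class II promoters, lay on opposite sides of its controls in the 2 treatments. It had 424 and 436 counts in vehicle, 594 and 604 with 12-HETE, 468 and 444 in vector, and 379 and 365 with ADAR1 p150 OE. It fell with ADAR1 p150 OE (-0.59, SE 0.10, adjusted p = 4.7e-05, edgeR). With 12-HETE it was called higher (0.29, SE 0.10, adjusted p = 0.0284, edgeR), but the call rested on the scaling and was lost with DESeq2 (adjusted p = 0.193), library totals alone (0.08, edgeR adjusted p = 0.563), RLE size factors (edgeR adjusted p = 0.0800) and no count minimum (0.358), among others. Rfxank shares 1341 exon bases with Nr2c2ap on the opposite strand, which had 78 to 130 counts.

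**Figure D4:**
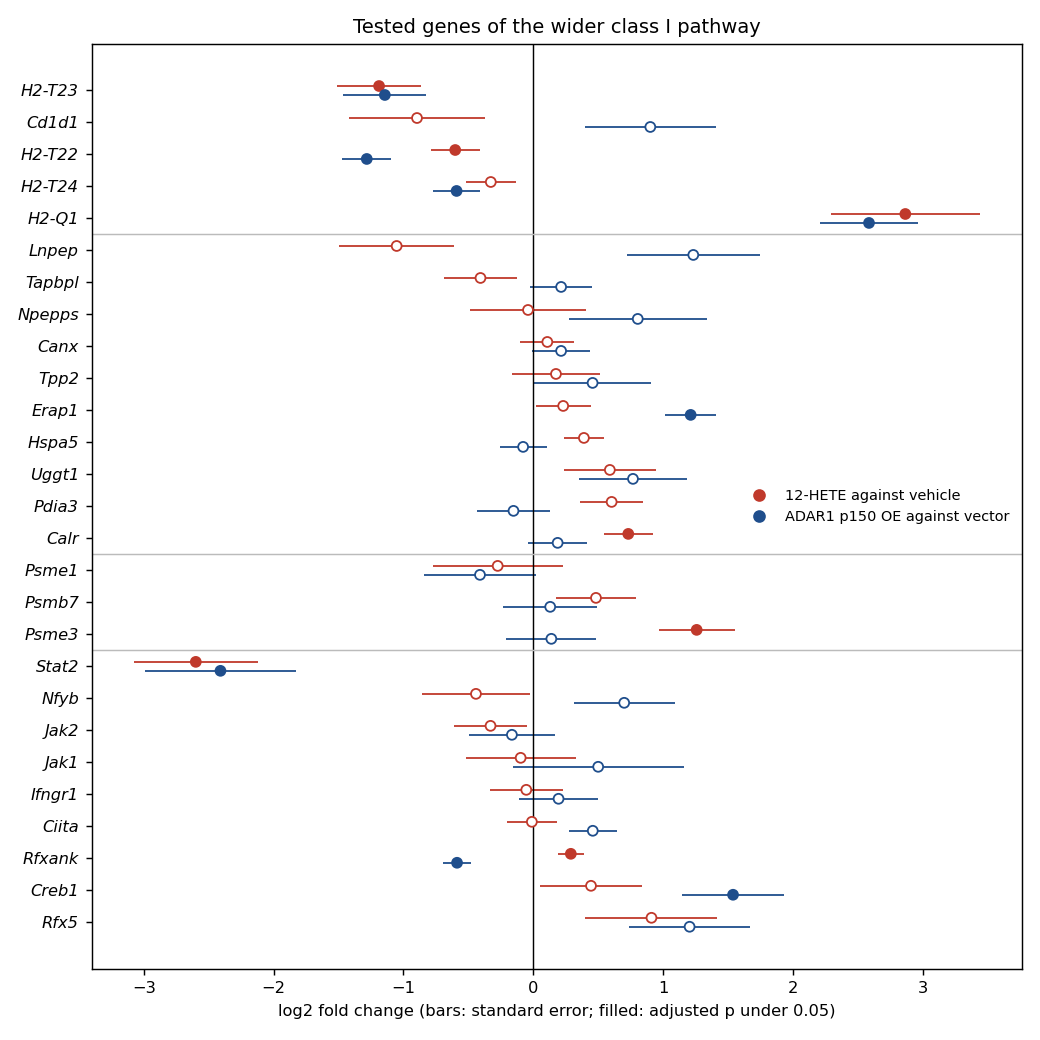
Log2 differences with bars of 1 SE are plotted for 27 of the 28 tested pathway genes in 12-HETE against vehicle and ADAR1 p150 OE against vector, in 4 blocks by role, with filled points for an adjusted p under 0.05. H2-Q1 (2.87 and 2.59) lies to the positive side and Stat2 (-2.60 and -2.41) and H2-T23 (-1.19 and -1.14) to the negative side in both comparisons, whereas Rfxank lies on opposite sides.

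The genes whose levels over the 8 libraries ran closest to the mean profile of the 4 tested class I genes were sought among 2208 others with a mean of at least 50 counts, by the mean absolute difference of centred log2 normalised CPM. Gab1, an adaptor of receptor tyrosine kinases, was nearest at 0.117, with 103 and 105 counts in vehicle, 43 and 46 with 12-HETE, 91 and 90 in vector, and 60 and 47 with ADAR1 p150 OE. The others were 2900089D17Rik at 0.134 and Gm6287 at 0.141. All 3 were lower in every treated library than in its controls, which the choice by likeness fixes.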

How the data were processed

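RNA-seq of EO771 cells was examined in 8 libraries, 2 in each of 4 groups taken from the labels. The authors deposited whole-number counts per gene, and per the labels the build was GRCm38. Per the study's methods, reads for RNA editing were checked with FastQC, stripped of duplicates with prinseq and aligned to GRCm38 with STAR. For expression the methods refer back to their standard process, alignment with STAR and counting with featureCounts, which names no removal of duplicates. The strand setting is not given in the sources used here. Whether duplicates were removed before these counts were made is not clear from the methods, and such removal can cap the counts of abundant transcripts.

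All 8 libraries entered 1 edgeR 4.0.16 quasi-likelihood fit (R 4.3.3, limma 3.58.1, TMM factors, a coefficient per group) over 6901 of 49997 genes, those whose counts averaged at least 10. P-values were adjusted over these genes by the Benjamini-Hochberg method, with an adjusted p under 0.05 as the call. The SE of a log2 difference was taken from the F statistic. CPM by library used library totals unless called normalised. The fit was also run on simulated data, and no result here rests on that run. DESeq2, run here in version 1.42.0, was an alternative because the study's methods used it (in another version, with the same count minimum and a 2-fold threshold), beside other scalings, count minimums, left-out libraries and a replicate block.

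The 10 genes, the pathway and marker lists and the tests were chosen with earlier results of these data known. By rule, all 10 genes, every pathway gene called in either treatment comparison, the 3 genes nearest in profile, opposite-strand neighbours of the 10, and Adar were named. Lnpep, Zbtb22 and the neighbours of pathway genes were added after their values were seen. Overlaps came from GENCODE M21 gene models and positions and promoters from RefSeq GRCm38.p6. Gm20496, Gm15821 and Gm16156, which overlap Psmb8, Tap2 and Psmb10, were not analysed here, and a result of the pathway list is not reported here. Same-numbered libraries did not deviate together (correlations of -0.0798 and -0.114).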

Additional observations from a re-analysis of the deposited data

Results flagged for a closer look

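For 3 genes of the wider pathway list, the effect of 12-HETE differed from the effect of ADAR1 p150 OE in a test of the difference itself (edgeR, adjusted over all 6901 genes). The difference for Rfxank was 0.88 on the log2 scale (SE 0.15, adjusted p = 4.8e-05). The difference for Erap1 was -0.98 (SE 0.29, adjusted p = 0.0169), and it was lost with DESeq2 (adjusted p = 0.119), with no count minimum (edgeR adjusted p = 0.0822), and without vehicle replicate 4 (0.137), 12-HETE replicate 5 (0.0532) or vector replicate 1 (0.0936). For Lnpep, an aminopeptidase linked to cross-presentation, the difference was -2.29 (SE 0.68, adjusted p = 0.0178), from 19 and 23 counts in vehicle and 15 and 8 with 12-HETE, 6 and 7 in vector and 30 and 8 with ADAR1 p150 OE. Neither effect of Lnpep passed the test alone (-1.05, adjusted p = 0.0714, and 1.23, adjusted p = 0.0745, edgeR). The 12-HETE effect passed with library totals alone (adjusted p = 0.0471), without AY036118 (0.0438) and with only the libraries of the contrast (0.0245), and the ADAR1 p150 OE effect without ADAR1 p150 OE replicate 2 (1.84, adjusted p = 0.00558, edgeR). For Lnpep DESeq2 gave no adjusted p for the difference, and the difference was lost without 12-HETE replicate 5 (-1.95, adjusted p = 0.0855) or ADAR1 p150 OE replicate 1 (-1.11, adjusted p = 0.384). None of the 4 class I genes tested differed in this way.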

How the results depend on the processing

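With 12-HETE, B2m, H2-D1 and Tap1 kept their direction, and an adjusted p under 0.05, in every alternative that tested them (Tap1 fell below a minimum of 10 counts in every library), H2-D1 being lost only where a 2-fold change was asked as well, and with each library left out their log2 changes ran from -1.34 to -1.18, -0.84 to -0.66 and -4.19 to -2.63. With ADAR1 p150 OE, H2-D1 ran from -1.26 to -0.89 and Tap1 from -4.39 to -2.06, and the class I genes called went from 4 to between 2 and 3 with a library left out, 2 past 2-fold, 1 with DESeq2 (3 at an unadjusted p under 0.05, Tap1 without an adjusted p). The difference of effects for Tap1 ran from -1.43 to 1.16, turning positive without 12-HETE replicate 4 (0.13) and without ADAR1 p150 OE replicate 1 (1.16).

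Counts of all genes called fell with the 2-fold threshold from 2021 to 991 (12-HETE), 1766 to 884 (ADAR1 p150 OE), 8 to 3 (vector against vehicle) and 1033 to 575 (difference of effects), and with DESeq2 to 1038, 818, 0 (232 unadjusted) and 466. For vector against vehicle, other settings gave 0 (library totals alone, 693 unadjusted), 4 (10 counts in every library), 19 (no minimum), 17 (without AY036118) and 2 to 37 (a library left out). Scaling to library totals alone turned the 12-HETE split from 1039 higher and 982 lower to 600 and 1367, and the difference of effects from 461 and 572 to 201 and 801. For the pathway list, 12-HETE calls went from 8 to 5 (2-fold), 4 (DESeq2) and 5 (10 counts in every library), ADAR1 p150 OE calls to 4 (DESeq2), and differences of effects from 3 to 1 (2-fold), 1 (DESeq2) and 1 to 5 (a library left out).

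With the replicate number as a block, 1788, 1507 and 859 genes were called (12-HETE, ADAR1 p150 OE and difference of effects), with 3, 3 and 0 class I genes of the 10 and 7, 8 and 3 pathway genes, and of the 10 only Tapbp lost its call. The numbers did not pair the libraries, and vector and vehicle share none. The crossed pairing, chosen after seeing the data as were library totals alone, called 1858 genes and 4 class I genes with ADAR1 p150 OE. At this depth 6 of the 10 genes were below the count minimum.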
